A study of Mus musculus with 6 samples.

Results

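The lactate dehydrogenases and the carriers that take lactate across the cell membrane were examined in OS3 glial cells with and without histone H3.3 K27M. The group holds 8 genes, namely the dehydrogenases *Ldha*, *Ldhb* and *Ldhd*, the monocarboxylate transporters *Slc16a1*, *Slc16a3* and *Slc16a7*, and the membrane partners *Bsg* and *Emb*. They were picked by name, and their 13 probes were found through the RefSeq accessions in the scanner output, of 22907 genes and 56605 probes on the array. Of these, 7 genes with 12 probes were bright enough to be tested, against 14894 genes and 34059 probes in all.

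OS3 is an immortalized line of mouse glial cells, established from the brain of newborn mice (C3H in the labels, C3H/HeN in the study's methods). WT cells were OS3 cells with the empty vector (OS3-vector), and IG27 cells were OS3 cells that received *H3f3a* carrying the K27M change (OS3-H3F3A_K27M), which replaces a lysine of the histone tail that can be methylated or acetylated. Cells of both groups were harvested after 2 days of culture from 3 dishes each, and the RNA of each dish was measured on an Agilent mouse array with 1 color, all on a shared slide. The lines were obtained by transfection and drug selection of clones, so a difference between the lines and an effect of the mutation cannot be told apart, and p-values measure the spread between dishes. On the array, the probe of *H3f3a* was lower in IG27 cells by a log2 fold change of -0.26 (SE 0.081, limma adjusted p = 0.0314), and whether it can bind the transgene's RNA is not given in the sources used here, so it does not check the labels.

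Lactate dehydrogenase interconverts pyruvate and lactate and, with it, NADH and NAD+. The enzyme is a tetramer of the A subunit, encoded by *Ldha* and abundant in glycolytic cells, and the B subunit, encoded by *Ldhb* and abundant in cells that oxidize lactate. Lactate leaves and enters cells with a proton through the monocarboxylate transporters MCT1 (*Slc16a1*), MCT4 (*Slc16a3*) and MCT2 (*Slc16a7*), which reach the membrane with the help of basigin (*Bsg*) or embigin (*Emb*). In brain, glia are known to release lactate, and neurons to take it up mostly through MCT2.

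All values are log2 intensities relative to the 75th percentile of the array, so 0 is the level of that percentile. Between 58.8% and 61.2% of probes were well above background on the arrays with complete scanner output, and none was saturated. The scanner output of IG27 replicate 2 holds 285 of 62976 spots, so its values came from the deposited value table and it has no background flags. The glial label was checked against markers. Of 8 astrocyte markers, 6 were well above background on every WT array with these flags and 6 on every such IG27 array, and of 8 markers of the oligodendrocyte lineage 7 and 8 were. The summed level of the astrocyte markers, on a linear scale, was 95.9 to 105.6 in WT and 55.2 to 63.5 in IG27 cells. Most of it was 1 probe of *Gfap* (-1.07), whose other probe gave 0.19, and of 7 tested astrocyte markers 3 were higher, among them *S100b* (4.93), and 3 lower. That of the endothelial markers was 0.258 to 0.281 in WT and 2.82 to 2.91 in IG27 cells. Most of this was *Kdr*, not well above background in WT. *Vwf* was also higher (1.46), while *Pecam1* was lower (-0.27) and *Cdh5*, *Cldn5* and *Tek* were too dim to test. Glial progenitor markers summed to 252.7 to 260.3 in WT and 185.8 to 203.9 in IG27 cells. Of the 6 tested, 4 were lower and 1 higher, *Fabp7*, not well above background in WT and at least 110-fold higher in IG27. Mesenchymal markers summed to 173.2 to 177.2 and 150.2 to 157.5. Here 3 of 5 tested were lower and 2 higher, *Col3a1* (1.57) and *Dcn* (not well above background in WT, at least 3.32-fold higher). Neuronal markers summed to 7.53 to 8.86 and 6.34 to 7.09, with *Rbfox3*, *Syt1*, *Nefl* and *Gad1* too dim to test. *Snap25* and *Nefm* were well above background on every array with these flags. *Stmn2* was so in WT only, and at least 5.34-fold lower in IG27. In all, 2 of 4 tested neuronal markers were lower and 0 higher. Microglial markers summed to 14.6 to 15.6 and 13.9 to 14.4, with *Cx3cr1* and *Ptprc* too dim. *Itgam*, *Tmem119*, *Csf1r* and *P2ry12* were well above background on every flagged array, and of 5 tested 3 were higher and 2 lower. Both groups were cultures of the OS3 line and not tissue, so these sums are not read as shares of cell types. The part of these shifts in the results was not tested. Fewer cells with the RNA of a marker and less of it per cell cannot be told apart in such bulk RNA.

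Of the 7 tested genes, *Ldha* was higher in IG27 cells, *Ldhb*, *Ldhd*, *Slc16a1* and *Slc16a7* were lower, and *Slc16a3* and *Bsg* did not pass the test (limma, threshold 0.05 on the adjusted p). These 5 calls in 7 genes stand against 68.8% of all tested genes called in either direction, 29.7% higher and 39.1% lower, so the number of calls is near the background of this comparison. *Ldhd* was bright enough to be tested only through WT, the group where it was higher. With every flagged array of both groups required to be well above background, 1 member gene was higher and 3 were lower. Over the 12 tested probes 10 passed, 2 of them higher and 8 lower, against 64.2% of all tested probes (30.8% higher and 33.4% lower). The arrays of the groups did not overlap for *Ldha*, *Ldhb*, *Slc16a1* and *Slc16a7*, as for 75.7% of all tested genes, and this held for all tested probes of these genes, as for 71.1% of all tested probes. A called change of at least 1 on the log2 scale, found in 23.1% of tested genes, was seen for *Ldhb*, *Slc16a1* and *Slc16a7*, and for *Ldhd* only with its values under the detection limit taken as measured. The sizes spread more widely: 7.74% of tested genes changed by more than *Ldhb*, 8.76% by more than *Slc16a7*, 21.6% by more than *Slc16a1* and 45.1% by more than *Ldha*. Over all tested genes the median log2 fold change was -0.07.

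**Figure D1:**
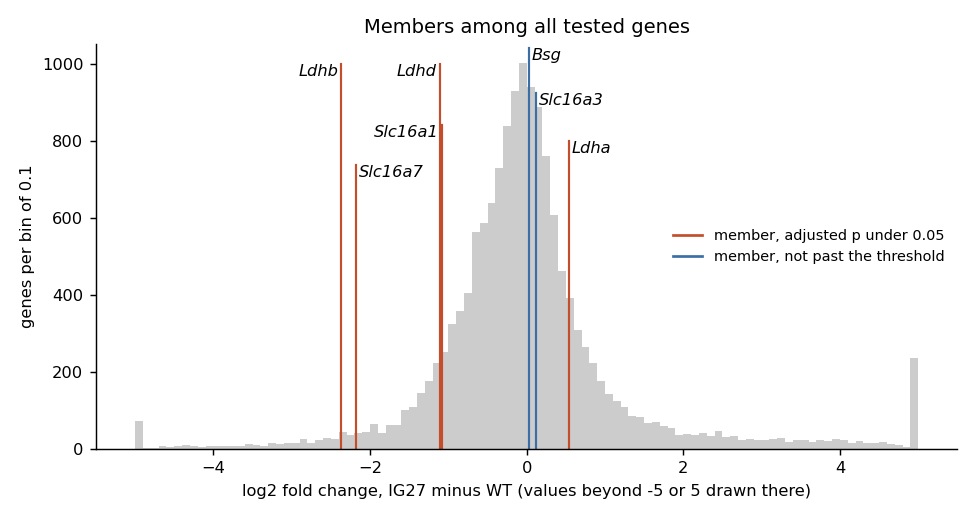
Distribution of the log2 fold change (IG27 minus WT) of the brightest probe of all 14894 tested genes, with the number of genes per bin on the vertical axis and each tested member as a line. *Ldhb* (-2.37) and *Slc16a7* (-2.18) lie in the lower tail, *Ldha* (0.54) on the upper shoulder, and *Bsg* (0.03) and *Slc16a3* (0.11) at the center.

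*Ldha*, on chromosome 7, encodes the A subunit, the form that favors making lactate from pyruvate. Its window of 250 bases before to 50 bases after an annotated start (RefSeq, GRCm38.p6, chr7:46845554-46845853, plus strand) is shown for its stretches of ACGTG. It held more of them than the windows of the other members. ACGTG is a form of the core letters bound by hypoxia-inducible factors, and CACGTG is bound by MYC. Other forms, such as GCGTG, were not searched, so their absence is not shown for any window. Letters in capitals match ACGTG on either strand, and CACGTG, the E-box, overlaps and contains it.
*Ldha*: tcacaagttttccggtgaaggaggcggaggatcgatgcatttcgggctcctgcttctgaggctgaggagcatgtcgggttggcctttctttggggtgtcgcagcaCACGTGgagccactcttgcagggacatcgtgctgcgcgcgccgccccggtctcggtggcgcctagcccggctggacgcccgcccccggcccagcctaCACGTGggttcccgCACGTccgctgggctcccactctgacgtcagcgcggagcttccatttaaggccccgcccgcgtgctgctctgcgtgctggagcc
It held 3 separate stretches with ACGTG, of which 2 were CACGTG. Across 32851 such windows of the mouse annotation 0.414% held at least 3 stretches of ACGTG and 0.594% at least 2 of CACGTG, whereas a second *Ldha* window, at another annotated start, held 0. A match is a description of letters and not of a bound site.

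The brightest *Ldha* probe read 6.87, 6.82 and 6.88 on the WT arrays and 7.49, 7.35 and 7.35 on the IG27 arrays. Every IG27 array lay above every WT array. The log2 fold change was 0.54 (SE 0.062, 95% interval 0.38 to 0.69, n = 3 per group, limma adjusted p = 0.000461), a 1.45-fold higher intensity. Scaling each array to its median made it 0.30 (limma adjusted p = 0.0115). This probe was among the brightest on the array, at the 99.7th percentile of mean intensity.

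The other *Ldha* probe, designed to the same transcript accession, read 1.47, 1.44 and 1.43 in WT and 3.24, 3.14 and 3.11 in IG27 cells. It rose as well, with a log2 fold change of 1.72 (SE 0.058, 95% interval 1.58 to 1.86, limma adjusted p = 2.77e-06), or 3.29-fold. Both probes therefore gave the same direction with different sizes. The difference between the probes within an array, which cancels any scaling of the array, moved by -1.18 between the groups and did not overlap (exact permutation test, p = 0.1, the smallest that 3 against 3 arrays allow; adjusted p = 0.133 over 8 pairs of probes). Neither probe was flagged as saturated on the arrays with complete scanner output, and the cause of the different sizes was not tested.

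*Ldhb*, on chromosome 6, encodes the B subunit. Its window (RefSeq, GRCm38.p6, chr6:142507908-142508207, minus strand) is shown beside that of *Ldha* because the genes of the paired subunits moved in opposite directions.
*Ldhb*: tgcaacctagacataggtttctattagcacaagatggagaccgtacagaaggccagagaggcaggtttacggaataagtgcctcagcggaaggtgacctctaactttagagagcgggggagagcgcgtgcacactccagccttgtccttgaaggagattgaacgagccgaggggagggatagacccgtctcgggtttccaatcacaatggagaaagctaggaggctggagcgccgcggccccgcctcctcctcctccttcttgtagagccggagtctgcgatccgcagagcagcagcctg
It held no ACGTG on either strand and so no capitals, which says only that these letters are not in this window. At least 1 stretch of ACGTG was found in 19.6% of all windows.

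The brightest *Ldhb* probe read 4.15, 4.19 and 4.22 in WT and 1.80, 1.78 and 1.89 in IG27 cells. The groups were far apart compared with the spread within them. *Ldhb* fell by a log2 fold change of -2.37 (SE 0.057, 95% interval -2.50 to -2.23, limma adjusted p = 8.47e-07), which is a 5.15-fold lower intensity. The other probe, on another transcript accession of the gene, read 1.65, 1.65 and 1.62 against -0.79, -0.86 and -0.91, a log2 fold change of -2.50 (SE 0.056, limma adjusted p = 6.96e-07). The probes of *Ldhb* differed in their change by 0.13, with overlapping arrays (exact permutation test, p = 0.2; adjusted p = 0.229).

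The balance of the subunit transcripts within each array restates these changes without the array scaling. The log2 intensity of *Ldha* minus that of *Ldhb*, for the brightest probes, was 2.72, 2.63 and 2.66 in WT and 5.68, 5.58 and 5.46 in IG27 cells. The level of such a difference depends on the probes and is not read as a ratio of transcripts, but its shift between groups does not depend on array scaling. The shift was 2.90, or 7.47-fold toward *Ldha*, and the groups did not overlap (exact permutation test, p = 0.1, adjusted p = 0.1 over 3 balances), which opposite changes of the 2 genes already imply. With the other *Ldha* probe and the same *Ldhb* probe the shift was 4.08, or 16.9-fold.

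*Ldhd*, on chromosome 8, encodes the mitochondrial enzyme that oxidizes D-lactate. It was dim, at -5.10, -4.18 and -4.59 in WT and -5.72, -6.38 and -5.08 in IG27 cells. The highest IG27 array lay just above the lowest WT array, so the groups overlapped. Its probe was well above background on all 3 WT arrays and on 1 of the 2 IG27 arrays with flags. The log2 fold change was -1.10 (SE 0.38, 95% interval -2.03 to -0.18, limma adjusted p = 0.0429). The call was lost without WT replicate 2 (-0.88, limma adjusted p = 0.118), WT replicate 3 (-1.09, 0.0966), IG27 replicate 1 (-1.11, 0.101) or IG27 replicate 2 (-0.78, 0.101). With each value under the lowest signal well above background set to that limit, the difference was -0.63. IG27 replicate 2 has no limit of its own and was set to -5.35, between those of the other IG27 arrays (-5.33 and -5.37). Genes of chromosome 8 had a median log2 fold change of -0.67, the lowest of the autosomes, and *Ldhd* minus that median was -0.44.

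**Figure D2:**
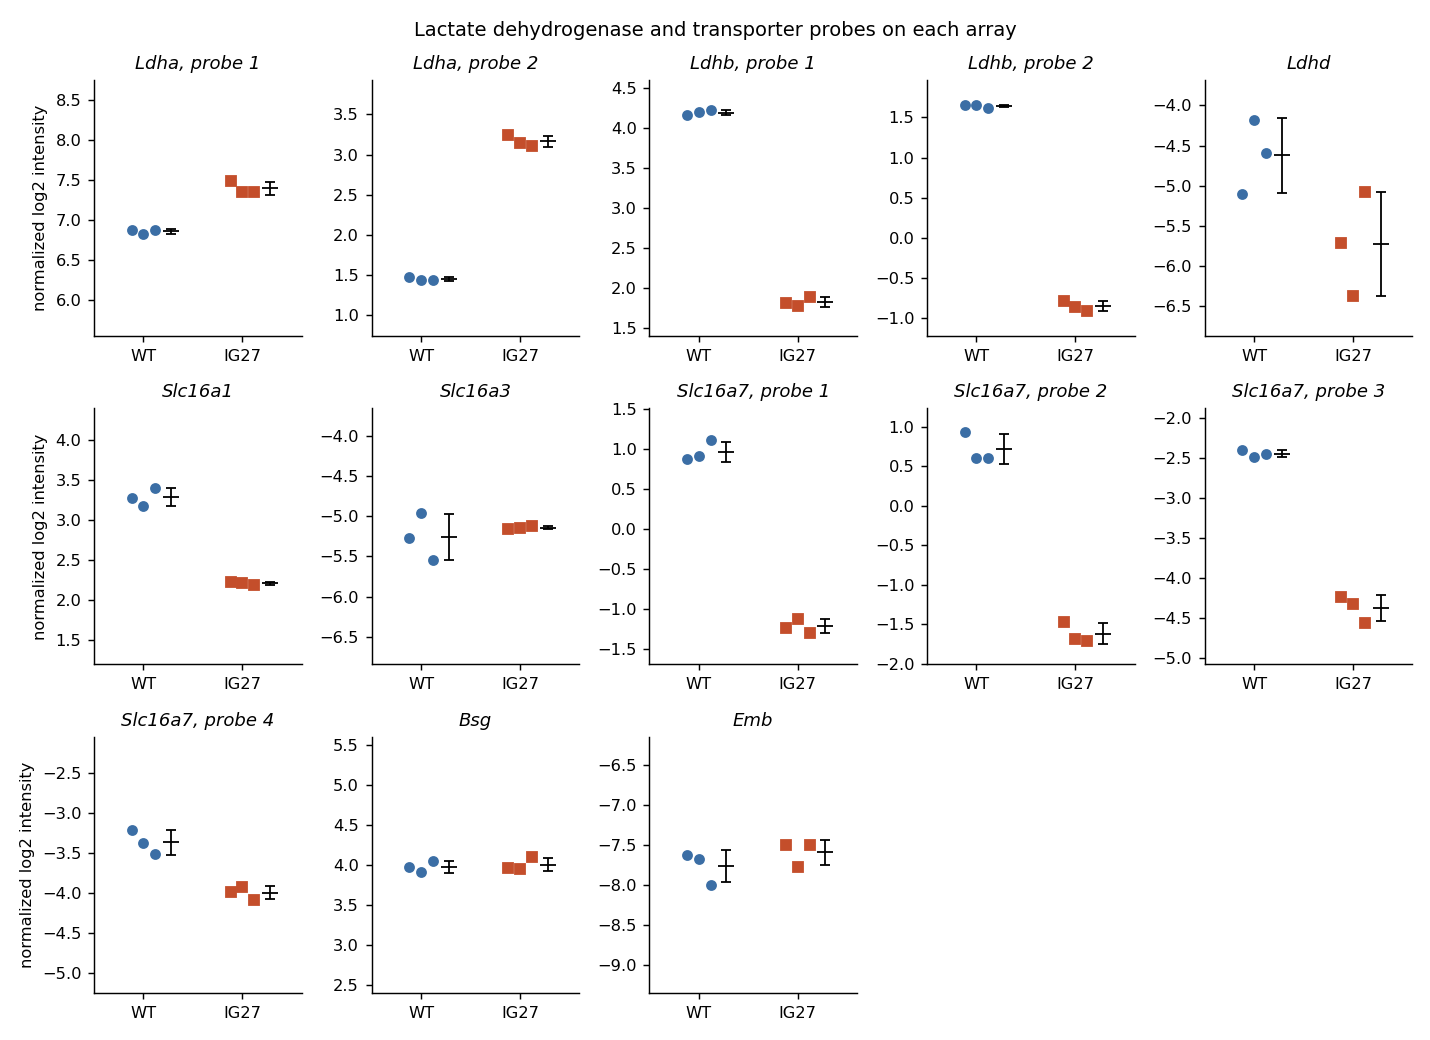
Normalized log2 intensity of the 13 member probes on each array, with WT arrays as circles, IG27 arrays as squares, and the mean and SD of 3 arrays beside them; each panel has its own range on the vertical axis, and levels are not compared between panels. Both *Ldha* probes lie higher in IG27 cells, both *Ldhb* probes and the 4 *Slc16a7* probes lie lower, the *Ldhd*, *Slc16a3* and *Bsg* arrays overlap, and *Emb* was not well above background on any array with flags.

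*Slc16a1*, on chromosome 3, encodes MCT1, the most widely expressed lactate carrier. Its window (RefSeq, GRCm38.p6, chr3:104638414-104638713, plus strand) is shown because this member also held several matches while its transcript went the other way from *Ldha*.
*Slc16a1*: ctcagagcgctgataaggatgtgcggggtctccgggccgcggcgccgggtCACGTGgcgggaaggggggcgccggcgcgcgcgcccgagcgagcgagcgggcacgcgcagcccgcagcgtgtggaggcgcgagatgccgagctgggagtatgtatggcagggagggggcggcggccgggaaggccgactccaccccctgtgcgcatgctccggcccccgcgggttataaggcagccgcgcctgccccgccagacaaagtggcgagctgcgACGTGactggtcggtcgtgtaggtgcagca
It held 2 stretches with ACGTG, 1 of them CACGTG, and 2.69% of all windows held at least 2. The window of *Slc16a3* also held 2 and that of *Ldhd* 1, that of *Emb* held 0, and *Slc16a7* and *Bsg* had no window in the table used. Of the members with a match, *Ldha* was higher and *Slc16a1* lower in IG27 cells. *Ldhd* was lower with overlapping groups, and *Slc16a3* did not pass. Whether these letters bear on the changes was not tested.

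The *Slc16a1* probe read 3.28, 3.18 and 3.40 in WT and 2.23, 2.22 and 2.20 in IG27 cells. All IG27 arrays were below all WT arrays. *Slc16a1* fell by a log2 fold change of -1.08 (SE 0.071, 95% interval -1.25 to -0.90, limma adjusted p = 4.07e-05), a 2.11-fold lower intensity. Chromosome 3 as a whole had a median of -0.31, and the difference from that median was -0.76.

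*Slc16a7*, on chromosome 10, encodes MCT2, a carrier with high affinity for lactate and pyruvate. Its brightest probe read 0.88, 0.92 and 1.11 in WT and -1.23, -1.12 and -1.29 in IG27 cells. *Slc16a7* fell by a log2 fold change of -2.18 (SE 0.087, 95% interval -2.39 to -1.97, limma adjusted p = 5.35e-06), a 4.53-fold lower intensity, on a chromosome whose median was 0.08. Its 4 probes were all lower in IG27 cells with no overlap between the groups. The second probe, on the same accession, gave -2.33 (SE 0.12, limma adjusted p = 1.44e-05), and the third, on a predicted transcript, gave -1.93 (SE 0.094, limma adjusted p = 1.21e-05). The fourth, on another predicted transcript, read -3.21, -3.38 and -3.52 in WT and -3.98, -3.92 and -4.08 in IG27 cells and gave a smaller fall, -0.63 (SE 0.094, limma adjusted p = 0.00151). Within arrays, the other 3 probes moved by -1.55, -1.71 and -1.30 relative to it, and none of these overlapped (exact permutation test, p = 0.1, adjusted p = 0.133). Over the 8 pairs of probes of a member gene, 6 did not overlap between the groups.

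*Slc16a3*, on chromosome 11, encodes MCT4, the carrier associated with lactate export from glycolytic cells. It was near the limit of detection in both groups, at -5.27, -4.96 and -5.54 in WT and -5.16, -5.14 and -5.12 in IG27 cells. For comparison, the dimmest probes called well above background lay between -6.01 and -5.53 on the WT arrays and at -5.33 and -5.37 on the IG27 arrays with flags. The log2 fold change was 0.11 (SE 0.15, 95% interval -0.24 to 0.47, limma adjusted p = 0.526). Its probe was well above background on all 3 WT arrays and on 1 of the 2 IG27 arrays with flags. The sign turned with quantile normalization (-0.17), scaling to the array median (-0.13), the slide row as a block (-0.19) and without WT replicate 3 (-0.03).

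The carriers were also set against each other within arrays. *Slc16a1* minus *Slc16a7* was 2.41, 2.26 and 2.29 in WT and 3.46, 3.33 and 3.49 in IG27 cells, a shift of 1.10 for the brightest probes. Probes 2 and 3 of *Slc16a7* gave shifts of 1.26 and 0.85, whereas probe 4 gave -0.45, so the order of the 2 falls turned with that probe. *Slc16a1* minus *Slc16a3* was 8.55, 8.14 and 8.94 in WT and 7.38, 7.36 and 7.32 in IG27 cells, a shift of -1.19. Neither balance overlapped between the groups (exact permutation test, p = 0.1, adjusted p = 0.1 for both), and the second rests on the dim *Slc16a3* probe.

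**Figure D3:**
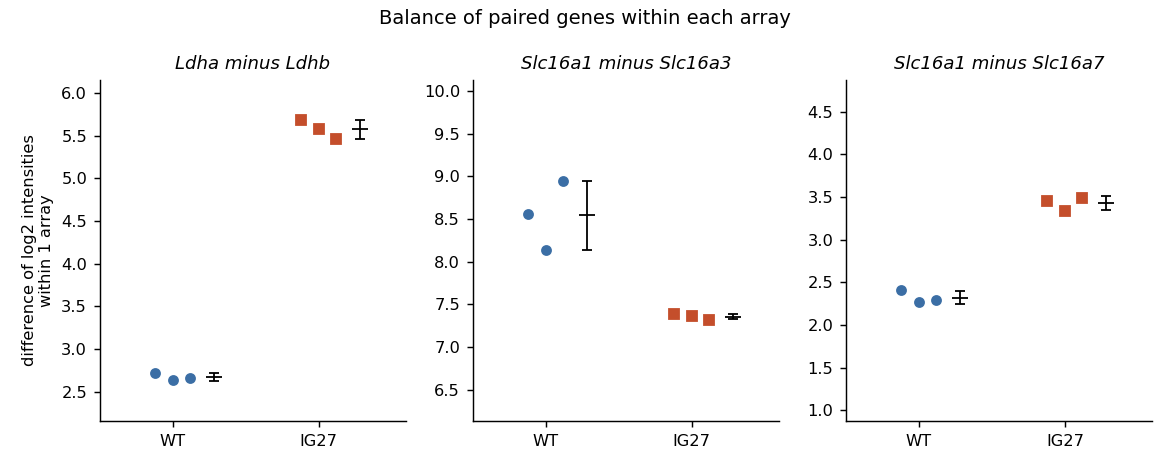
Difference of the log2 intensities of paired member genes within each array (brightest probes), with WT arrays as circles, IG27 arrays as squares, and the mean and SD of 3 arrays beside them. *Ldha* minus *Ldhb* shifted by 2.90, *Slc16a1* minus *Slc16a3* by -1.19 and *Slc16a1* minus *Slc16a7* by 1.10, and the groups did not overlap in any of these balances.

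*Bsg*, on chromosome 10, encodes basigin (CD147), which carries MCT1 and MCT4 to the membrane. Its probe was bright and read 3.97, 3.91 and 4.05 in WT and 3.96, 3.94 and 4.09 in IG27 cells. The arrays of the groups overlapped. The log2 fold change was 0.03 (SE 0.070, 95% interval -0.14 to 0.20, limma adjusted p = 0.759), and its sign turned when arrays were scaled to their median (-0.21), without WT replicate 2 (-0.01), without IG27 replicate 3 (-0.02) and relative to the chromosome median (-0.06). Among all tested genes 96.4% changed by more.

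*Emb*, on chromosome 13, encodes embigin, the partner associated with MCT2. It read -7.63, -7.67 and -8.00 in WT and -7.51, -7.77 and -7.50 in IG27 cells. On none of the 5 arrays with flags was it well above background, so it was not tested and no fold is given.

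**Figure D4:**
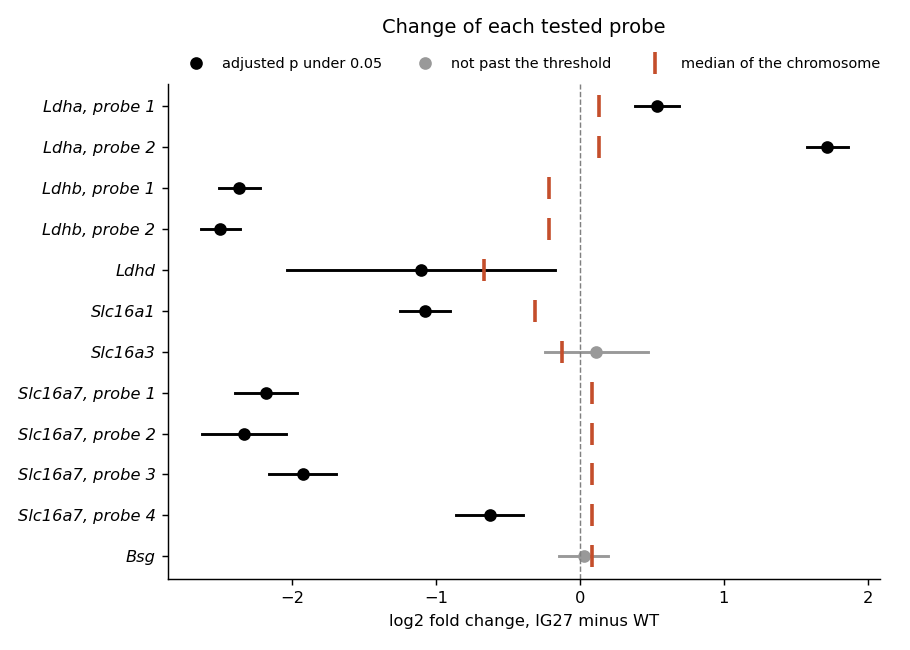
Log2 fold change (IG27 minus WT) of the 12 tested member probes with 95% intervals from limma, black where the adjusted p is under 0.05 and gray otherwise, and a vertical mark at the median of all tested genes of the chromosome. The *Ldha* probes lie to the right of 0 with different sizes, the *Ldhb* probes lie together near -2.37 and -2.50, and the *Ldhd* interval is the widest.

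Genes next to the members on the chromosome were read as a local background, taking the 5 nearest tested genes on each side. Their counts stand against 29.7% of all tested genes called higher and 39.1% called lower. Around *Ldha*, 7 of 10 neighbors were higher and 1 was lower, with a median of 0.54. The brightest *Ldha* probe gave 0.54 and the other 1.72. Among these neighbors *Saa3* (3.67), *Tmem86a* (2.63) and *Mrgpra4* (1.08) rose by at least 2-fold. Around *Ldhb*, 4 were higher and 3 lower with a median of -0.03, and none changed by 2-fold. Around *Slc16a7* the median was 0.24, with 5 higher, among them *Ppm1h* (2.69) and *Avil* (2.40), and 4 lower. *Slc16a1* had 6 lower and 0 higher neighbors with a median of -0.29, among them *Magi3* (-1.55) and *Phtf1os* (-1.09), and *Bsg* also had 6 lower and 0 higher (median -0.23). *Ldhd* had 6 lower, among them *Bcar1* (-1.004), and 2 higher, *Mlkl* (1.56) and *Fa2h* (not well above background in WT, at least 2.02-fold higher), with a median of -0.57. *Slc16a3* had 3 higher, among them *Tex19.1* (not well above background in WT, at least 2.40-fold higher), and 3 lower, and *Emb* had 2 higher, among them *3110070M22Rik* (1.53), and 6 lower, among them *Parp8* (not well above background in IG27, at least 24.2-fold lower). The falls of *Ldhb* and *Slc16a7* at their brightest probes were thus larger than those of any of their neighbors. The median around *Ldhd* lay within the 95% interval of *Ldhd*, but that interval (-2.03 to -0.18) was the widest of the tested member probes. It is too wide to tell *Ldhd* from its neighbors.

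The genes whose profile over the 6 arrays was most like that of a member were found by the root mean square difference after centering each gene, a measure led by the size of the group difference. For *Ldha* they were *Necap2*, *Myl12a* and *Cars* (0.011 to 0.018), and for *Ldhb* *Asgr1* and *1190005I06Rik* (0.033 and 0.042). For *Slc16a1* they were *Ccdc32*, *Ahr* and *Acad11*, for *Slc16a7* *Apc2*, *Osbpl10* and *Pipox*, and for *Bsg* *Polr2b*, *Nppb* and *Clip1*. For the dim probes the nearest profiles were *Reln*, *Catspere2* and *Ttll8* for *Ldhd* and *Slc17a1*, *Ms4a18* and *Cd209d* for *Slc16a3*. No other member was among the 3 genes nearest to a member.

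The wider lactate pathway was described with 7 lists holding 70 genes, of which 50 were tested, 16 were higher and 18 lower in IG27 cells (limma), or 68.0% called against the 68.8% of all genes. The other members of the lactate dehydrogenase family showed no call: *Ldhal6b* gave 0.22 (limma adjusted p = 0.444) and *Uevld* -0.08 (limma adjusted p = 0.391; its other probe 0.36), and *Ldhc*, the testis subunit, was not well above background. By an unadjusted p the count was also 0, and 1 was called with array median scaling (lower), without the filter on dim probes (higher) and when the probes of each gene were averaged (higher). Among the other SLC16 carriers 2 of 7 tested genes were higher and 4 lower, with a median of -0.83. Among those that fell were the carnitine and creatine carrier *Slc16a9* (-2.17, its other probe -1.26), *Slc16a13* (-2.21) and *Slc16a11* (-0.83). *Slc16a6* (1.02), a ketone body carrier, rose, and the aromatic amino acid carrier *Slc16a10* was not well above background in WT and at least 3.16-fold higher in IG27 cells.

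Of the genes for the subunits of the mitochondrial pyruvate carrier, *Mpc1* was at 0.44 (limma adjusted p = 0.00124) and *Mpc2* at -0.61 (limma adjusted p = 0.0383). The *Mpc2* call was lost in 8 of 18 alternatives, among them those without WT replicate 1, WT replicate 2, IG27 replicate 1 or IG27 replicate 3. *Nptn*, encoding neuroplastin, a relative of basigin that also escorts MCT2, fell by a log2 fold change of -0.87. The sodium-coupled carriers *Slc5a8* and *Slc5a12* and the lactate receptor *Hcar1* were too dim to test. On the route that makes and clears D-lactate, the substrate of *Ldhd*, the glyoxalase *Glo1* fell (-0.24), *Haghl* (0.85) and *Park7* (0.21) rose, and *Hagh* (0.17, limma adjusted p = 0.151) and *Pnkd* (-0.11, limma adjusted p = 0.247; its other probe 0.64) did not pass. The call of *Park7* was lost in 8 of 18 alternatives, among them those without WT replicate 2, WT replicate 3, IG27 replicate 1 or IG27 replicate 2, and its sign turned with array medians (-0.03). That of *Glo1* was lost with quantile normalization, and its other probes gave -0.24 and 0.01. The other probe of *Park7* gave 0.54, in the same direction as its brightest.

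Cytosolic NADH can also be oxidized through shuttles into the mitochondrion, and of their 8 tested genes 2 were higher and 5 lower, with a median of -0.30. The split was 1 and 5 with array medians and 2 and 3 with the slide row as a block. *Gpd1*, the cytosolic glycerol-3-phosphate dehydrogenase, rose by 4.50 (SE 0.072, limma adjusted p = 2.47e-07), from -1.81 ± 0.099 to 2.69 ± 0.056 (SD, n = 3). Its other probe gave 3.19. The aspartate-glutamate carrier *Slc25a12* fell by a log2 fold change of -1.34, and the mitochondrial partner of *Gpd1*, *Gpd2*, read 0.24 (limma adjusted p = 0.0825). Among 13 tested genes of acid handling 4 were higher and 3 lower, with a median of -0.21. The split was 4 and 6 with array medians and without IG27 replicate 1, and 6 and 3 with quantile normalization. *Car9*, a carbonic anhydrase at the cell surface that is a standard hypoxia target, rose by 2.97 (limma adjusted p = 1.96e-05), and its other probe gave 1.91. The bicarbonate cotransporter *Slc4a4* was not well above background in WT and at least 9.70-fold higher in IG27 cells. *Car15* fell (-1.80), and *Car13* was not well above background in IG27 and at least 2.87-fold lower. With the genes that were dim in 1 group set to these bounds, the list medians were the same.

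Among 12 genes known to regulate the members 5 were higher and 3 lower, with a median of 0.09. With array medians the split was 5 and 5, and with the probes of each gene averaged 5 and 1. *Hif1a* (0.88, limma adjusted p = 2.50e-05) and *Epas1* (2.56, limma adjusted p = 2.17e-06), encoding hypoxia-inducible factors, and *Myc* (1.19, limma adjusted p = 1.68e-05) were higher, whereas *Arnt*, encoding the partner of the hypoxia-inducible factors, read 0.07 (limma adjusted p = 0.863). *Ppargc1a*, a coactivator of oxidative genes, was lower (-0.52) and its relative *Ppargc1b* higher (2.11). *Kat2b* (0.75) was higher, *Fgfr1* (-0.63) and *Src* (-0.48) were lower, and the other probe of *Ppargc1a* gave -0.03 and that of *Src* 0.59, so the average of the *Src* probes turned to 0.06. *Esrra* (0.11), *Sirt2* (-0.13) and *Flcn* (0.00) did not pass. Transcript levels of these genes were set beside the members and no effect on them was tested.

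**Figure D5:**
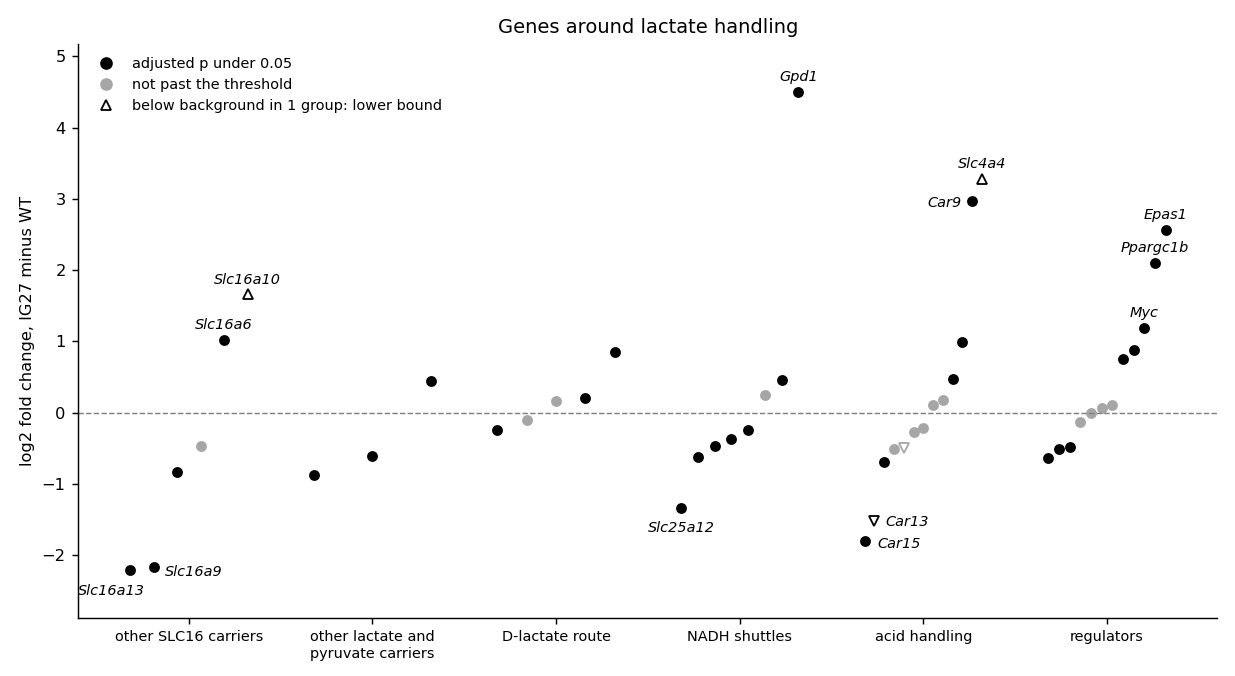
Log2 fold change (IG27 minus WT, vertical axis) of the reported genes of 6 lists around lactate handling, black where the limma adjusted p is under 0.05 and gray otherwise; triangles are genes not well above background in 1 group, drawn at their lower bound. Genes that passed with a change of at least 2-fold are named, and each list holds genes on both sides of 0.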

How the data were processed

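RNA of 3 WT and 3 IG27 dishes was measured on 6 single-color Agilent arrays of 1 slide. The authors scanned the arrays, and the deposited intensity is the processed signal of Feature Extraction on a linear scale (version 10.7.3.1 per the file headers, 9.1 per the submitters' processing notes), with no scaling between arrays. The intensity in the deposited value table equaled the scanner output in all 56305 single-spot probes of each complete array (relative tolerance 1e-04). It exchanges WT replicates 2 and 3, so these arrays follow the labels of their scanner files. It gave all values of IG27 replicate 2.

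Values were log2 of the processed signal minus the 75th percentile of the array. Outlier spots as flagged by the software, 107 to 210 on a complete array, were dropped. A probe was tested if it was well above background on every flagged array of at least 1 group, and the brightest probe stood for a gene. Differences were tested with limma (version 3.58.1, R 4.3.3, lmFit and eBayes, two-sided) with Benjamini-Hochberg adjustment over 34059 probes and a threshold of 0.05. Differences within arrays were tested by exact permutation, two-sided. *Bsg* minus *Emb* was planned and not computed, as *Emb* was not above background. Bounds ("at least") set the mean of the bright group against, on each flagged array of the dim group, the lowest signal well above background or the value of the probe itself, whichever was higher.

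Probes were named through RefSeq accessions with a GRCm38.p6 table, which matched 29334 of 29638 accessions with the prefix NM. Arrays carry no read depth, and their number limits the precision. From each list, genes past the threshold with a log2 change of at least 1 and no overlap were named, with neighbors changed as much and all genes of the shorter lists. *Slc16a11*, *Gpd2*, *H3f3a* and the marker genes were named after their values were seen. Some genes that this rule names are not reported here. The members and lists were chosen with earlier results of these data known. The fit was tested on simulated data.

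The alternatives were quantile and median scaling, normexp (offset 50, median signals, complete arrays), the value table by label, other filters, outlier spots kept, genes only, mean of probes, eBayes with trend, replicate number or slide row as a block, each array left out, an unadjusted p and centering on the chromosome median.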

Additional observations from a re-analysis of the deposited data

How the results depend on the processing

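Of 204 log2 fold changes of member probes recomputed in other fits, 189 kept their direction and their side of the threshold, 8 lost the call and 7 turned sign. The calls of *Ldha*, *Ldhb*, *Slc16a1* and *Slc16a7* were kept in every fit run. The call of *Ldhd* was lost with normexp (-0.34), without the filter on dim probes (-1.10), with the replicate block (-1.10) and with the slide row as a block (-1.55), and its log2 fold change ran from -1.43 to -0.78 when each array was left out. With the filter that asks for every flagged array, *Ldhd* and *Slc16a3* were not tested. Relative to the chromosome median, *Ldha* was 0.41, *Ldhb* -2.15, *Ldhd* -0.44, *Slc16a1* -0.76 and *Bsg* -0.057. The sign of *Slc16a3* turned with quantile normalization (-0.17), array medians (-0.13) and the slide row (-0.19), and ran from -0.029 to 0.26 with each array left out. That of *Bsg* turned with array medians (-0.21) and ran from -0.02 to 0.064. Array medians moved the median of all probes to -0.24 and the absence of a filter to 0.18. The other lactate dehydrogenase family had 1 call with array medians, without the filter and with the mean of probes. *Slc16a7* probe 1 minus probe 2 turned to -0.10 with normexp and ran from -0.0043 to 0.28 with each array left out. The shift of *Slc16a1* minus *Slc16a7* was -0.45 with the fourth *Slc16a7* probe, and *Ldhd* was -0.63 at the detection limit, alternatives that, with the other probes of *Ldha* and *Ldhb*, were chosen after seeing the data. The number of member genes called was 4 or 5. The causes were not tested. The replicate numbers did not pair the arrays (correlations of deviations 0.01, 0.02 and 0.06), and with them as a block 21189 of 34059 probes were called in place of 21864. WT replicates 1 and 3 lay in one row of the slide and the other arrays in the other, so that block compares IG27 cells with WT replicate 2 alone. *Ldhd*, *Slc16a3* and *Emb* lay near or under the background, which limits what they can show.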
